A study of Mus musculus with 8 samples.

Results

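The 9 genes Pi16, Dpt, Serpinf1, Pcolce2, Gsn, Mfap5, Cd34, Ly6a and Clec3b are markers used in lung studies to recognise adventitial fibroblasts, and they are described here in RNA labelled as coming from lung myofibroblasts. They were taken by name from the 43432 mouse gene identifiers of the count table, all 9 were found, and all 9 were among the 15422 genes that passed the filter on low counts. The libraries came from C57BL/6 mice at postnatal day 7 and were made from messenger RNA of lung myofibroblasts, the contractile, elastin-making mesenchymal cells of the growing alveolar wall. Of 8 libraries, 4 carry a wildtype label (control 1 to control 4). The other 4 carry a Fra-2 transgenic label with constitutive Fra-2 expression (Fra-2 1 to Fra-2 4), and are called the Fra-2-labelled libraries. The labels name neither the promoter of the transgene nor the way the cells were isolated, and do not say whether each library came from its own animal, so the p-values speak only for the spread among these libraries, part of which may be technical.

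Adventitial fibroblasts sit in the connective tissue cuff around larger blood vessels and airways. They are known for a loose collagen matrix, for secreted proteins that help build collagen and elastic fibres, and for surface markers shared with progenitor cells. Lung myofibroblasts and the other mesenchymal cells of the lung share some of these matrix genes with them, so none of the 9 is on its own specific for one cell type. In bulk RNA, a lower share of cells of one type cannot be told apart from less of a transcript in each cell, and this holds for every level given here.

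The library depth was 29926239 to 41335957 counts. The gene named by the labels, Fosl2, which encodes Fra-2, measured 105, 117, 141 and 119 CPM (counts scaled to a common library size, with TMM factors) in control 1 to control 4 and 166, 134, 126 and 104 CPM in Fra-2 1 to Fra-2 4. The groups overlapped. The log2 fold change of 0.14 had an SE of 0.136 (edgeR quasi-likelihood test, adjusted p = 0.888), and a two-sided exact permutation test gave p = 0.457. For that reason the second group is called by its label. None of the 14 genes listed as markers of alveolar myofibroblasts was at 0. Of these, Tgfbi measured 4646 ± 377 CPM and the receptor gene Pdgfra, named after its values were seen, 1139 ± 156 CPM in the controls (SD, n = 4).

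The 9 genes differed widely in level. Levels between genes are compared per length, in RPKM, the CPM divided by the length in kilobases of the union of all annotated exons. This length overstates the transcript of genes with many alternative exons. Dpt was the highest, at 209 ± 31.6 RPKM in the controls and 311 ± 40.4 RPKM in the Fra-2-labelled libraries (SD, n = 4), and stood at percentile 99.5 of the tested genes. Cd34 followed in the controls at 52.2 ± 9.26 RPKM, then Mfap5 at 40.1 ± 4.18, Gsn at 34.4 ± 7.71, Serpinf1 at 33.4 ± 8.65, Pcolce2 at 15.3 ± 1.59 and Clec3b at 8.03 ± 1.04 RPKM. Pi16, often taken as the defining gene of adventitial fibroblasts, had only 1.13 ± 0.118 RPKM, and Ly6a 0.754 ± 0.359 RPKM. Both of these lay in the lower part of the tested genes, Pi16 at percentile 34.2 and Ly6a at percentile 29.1.

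In the controls, the library ranges of Cd34 and Mfap5, of Mfap5 and Gsn, of Gsn and Serpinf1, and of Pi16 and Ly6a overlapped, so these neighbours in the order were not separated. Dpt stood clear of Cd34, Serpinf1 of Pcolce2, Pcolce2 of Clec3b and Clec3b of Pi16. In CPM, which leaves out length, the controls overlapped for Dpt and Cd34, for Serpinf1 and Pcolce2, and for Clec3b and Pi16. Those separations thus rest on the exon lengths, 1724 and 7290, 2359 and 4625, and 992 and 6364 bases. In the Fra-2-labelled libraries Serpinf1 measured 58.0 ± 8.57 RPKM and stood next to Cd34 at 60.3 ± 10.4 RPKM, with Gsn at 47.5 ± 3.13 and Mfap5 at 41.6 ± 4.58 RPKM below them. The libraries of Serpinf1 (50.5 to 69.3 RPKM) overlapped those of Cd34 and lay just above those of Gsn (44.3 to 50.3 RPKM). Together, Dpt and Cd34 gave 63.8% of the summed CPM of the 9 genes over the 8 libraries.

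All 9 log2 fold changes were above 0 in the Fra-2-labelled libraries against the controls, as were 47.8% of those of all tested genes, and 3 of the 9 genes passed the test: Serpinf1, Dpt and Pcolce2. They were 1.74-fold, 1.48-fold and 1.39-fold higher. The edgeR test called 0 of the 9 lower, and at an unadjusted p under 0.05 it had 5 higher and 0 lower, where 5.17% of all tested genes were higher and 3.53% lower. Over all 15422 tested genes, 0.720% were called higher and 0.298% lower at an adjusted p under 0.05. DESeq2 called 4 of the 9 higher, the fourth being Clec3b, and 0 lower, against 1.70% and 0.657% of the genes it tested. In 5 of the 9 genes all 4 Fra-2-labelled libraries lay above all 4 controls, which was the case for 3.35% of tested genes, and in 0 of the 9 they all lay below, against 2.42%. The median log2 fold change of the 9 was 0.47, with a range of 0.05 to 0.80, and that of all tested genes was -0.01.

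**Figure D1:**
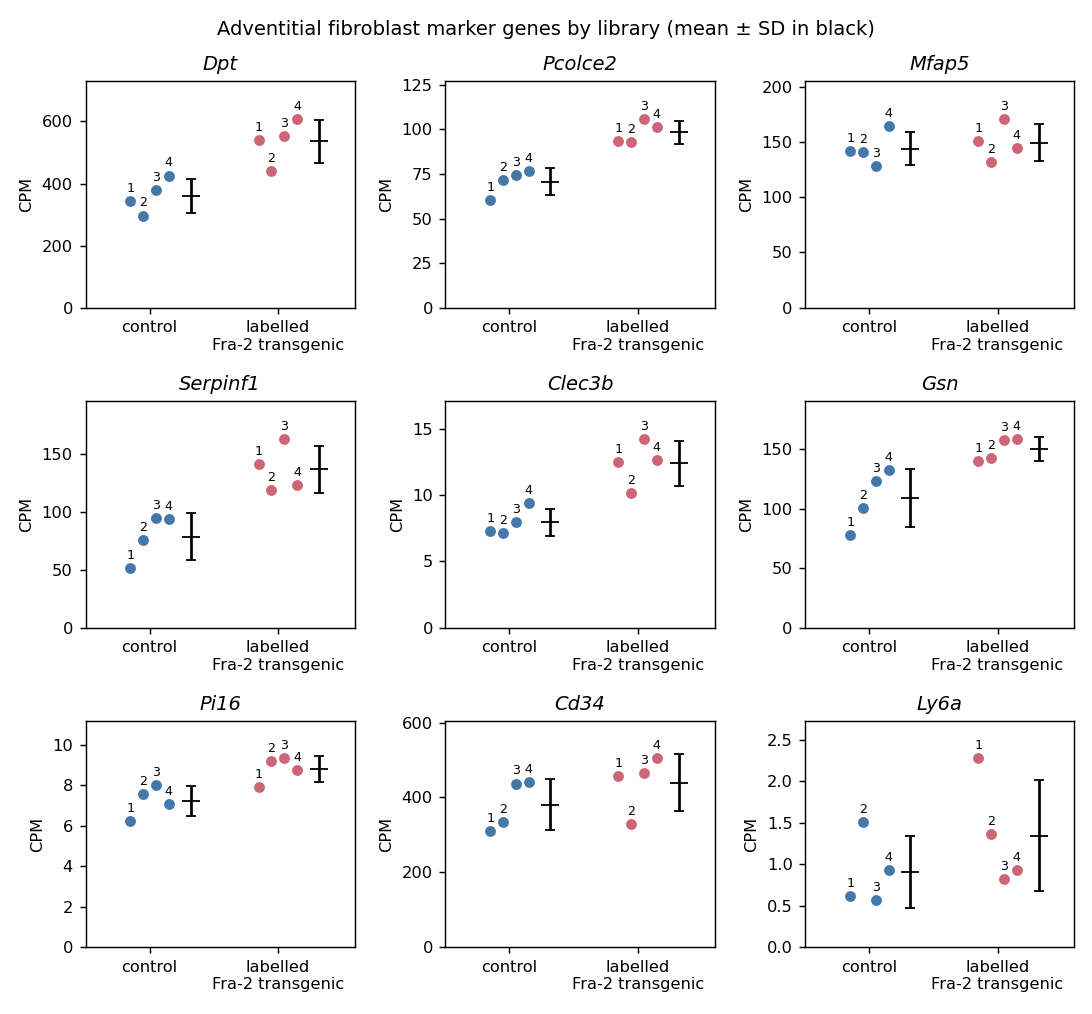
CPM of each of the 9 marker genes in every library (points, numbered by replicate), with the group mean and SD (n = 4) in black. In Dpt, Pcolce2, Serpinf1, Clec3b and Gsn every Fra-2-labelled library lies above every control, while the groups overlap in Mfap5, Pi16, Cd34 and Ly6a.

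Dpt, Pcolce2 and Mfap5 encode proteins of the extracellular matrix. Dpt encodes dermatopontin, a small matrix protein that binds decorin and speeds the assembly of collagen fibrils. It measured 343, 297, 378 and 426 CPM in control 1 to control 4 and 542, 441, 552 and 609 CPM in Fra-2 1 to Fra-2 4. Each Fra-2-labelled library was above each control, with Fra-2 2 and control 4 closest to each other. Dpt rose by 0.57 on the log2 scale (SE 0.127, edgeR adjusted p = 0.049), a 95% interval of 1.23-fold to 1.79-fold. Dpt lies on the plus strand of chromosome 1 (ENSMUSG00000026574, 164796644 to 164824266 in GRCm38).

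Pcolce2 encodes an enhancer of the proteinases that cut the C-terminal propeptide from fibrillar procollagens. It measured 60.2, 71.4, 74.4 and 76.9 CPM in the controls and 93.3, 92.8, 106 and 101 CPM in the Fra-2-labelled libraries. The groups did not overlap, and the spread within each was narrow. Pcolce2 rose by 0.47 (SE 0.104, edgeR adjusted p = 0.0459), a 95% interval of 1.19-fold to 1.62-fold. It lies on chromosome 9 (ENSMUSG00000015354, plus strand, 95637601 to 95698096).

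Mfap5 encodes a glycoprotein of the fibrillin microfibrils that surround elastin. It measured 142, 141, 128 and 164 CPM in the controls and 151, 131, 171 and 144 CPM in the Fra-2-labelled libraries, and the groups overlapped almost wholly. The log2 fold change of 0.05 had an SE of 0.109 (edgeR adjusted p = 0.954). Its 95% interval ran from 0.882-fold to 1.22-fold, which leaves out a change as large as that of Pcolce2 (1.39-fold). The difference between the 2 genes was not tested. Mfap5 lies on chromosome 6 (ENSMUSG00000030116, plus strand, 122505845 to 122529290).

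Serpinf1, Clec3b and Pi16 encode secreted proteins. Serpinf1 encodes pigment epithelium-derived factor, a serpin that does not inhibit proteases and is known as an inhibitor of blood vessel growth that binds collagen. It measured 51.2, 75.4, 94.5 and 93.8 CPM in the controls and 141, 119, 164 and 123 CPM in the Fra-2-labelled libraries. Control 1 was the lowest library, and the lowest Fra-2-labelled library lay above the highest control. Serpinf1 rose by 0.80 (SE 0.174, edgeR adjusted p = 0.0497), the highest fold change of the 9 genes, with a 95% interval of 1.34-fold to 2.26-fold. It lies on chromosome 11 (ENSMUSG00000000753, minus strand, 75409769 to 75422701).

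Clec3b encodes tetranectin, a plasminogen-binding protein with a C-type lectin domain. It measured 7.32, 7.16, 7.96 and 9.42 CPM in the controls and 12.5, 10.2, 14.3 and 12.6 CPM in the Fra-2-labelled libraries. The groups did not overlap, but the gene missed the threshold in edgeR (log2 fold change 0.64, SE 0.165, adjusted p = 0.103), with a 95% interval of 1.22-fold to 1.99-fold. DESeq2 gave an adjusted p of 0.0118. Between 251 and 477 reads were counted per library. Clec3b shares chromosome 9 with Pcolce2 (ENSMUSG00000025784, 123150946 to 123157432).

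Pi16 encodes a secreted peptidase-inhibitor-like protein of the CAP superfamily. It measured 6.24, 7.56, 7.99 and 7.07 CPM in the controls and 7.93, 9.20, 9.33 and 8.75 CPM in the Fra-2-labelled libraries. The groups overlapped by 1 library, Fra-2 1, which lay just under control 3. The log2 fold change of 0.29 had an SE of 0.163 (edgeR adjusted p = 0.699), and its 95% interval was 0.958-fold to 1.55-fold. Between 235 and 330 reads were counted per library. Pi16 lies on chromosome 17 (ENSMUSG00000024011, 29317680 to 29330593).

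Gsn encodes gelsolin, which severs and caps actin filaments inside the cell and also has a secreted form in plasma. It measured 78.0, 101, 123 and 133 CPM in the controls and 140, 143, 158 and 159 CPM in the Fra-2-labelled libraries. The groups did not overlap. The controls were spread much more widely than the other group (coefficient of variation 22.4% and 6.59%). Gsn missed the threshold (log2 fold change 0.47, SE 0.141, edgeR adjusted p = 0.199), with a 95% interval of 1.12-fold to 1.70-fold. It lies on chromosome 2 (ENSMUSG00000026879, 35256380 to 35307892).

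Cd34 and Ly6a encode surface proteins. Cd34 encodes a sialomucin found on fibroblasts, endothelial cells and blood progenitors. It measured 311, 336, 437 and 440 CPM in the controls and 457, 330, 466 and 504 CPM in the Fra-2-labelled libraries. Fra-2 2 fell among the lower controls and the other 3 Fra-2-labelled libraries lay above all controls. The log2 fold change of 0.21 had an SE of 0.146 (edgeR adjusted p = 0.803), and its 95% interval was 0.929-fold to 1.43-fold. Cd34 lies on chromosome 1 (ENSMUSG00000016494, 194938819 to 194961279).

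Ly6a encodes the lipid-anchored stem cell antigen Sca-1, which marks adventitial fibroblasts, endothelial cells and many progenitors. It measured 0.620, 1.51, 0.569 and 0.933 CPM in the controls and 2.28, 1.37, 0.819 and 0.928 CPM in the Fra-2-labelled libraries. These levels rest on 18 to 79 reads per library, so the counting error is large. Ly6a belongs to a family of closely related genes, and how reads that fit several of them were counted is not given in the sources used here. The groups overlapped. The log2 fold change of 0.57 had an SE of 0.48 (edgeR adjusted p = 0.853), and the 95% interval of 0.727-fold to 3.03-fold covers a fall as well as a rise as large as those of the other members. Ly6a lies on chromosome 15 (ENSMUSG00000075602, 74994877 to 74998031).

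Of the members, 4 overlap annotated genes on the opposite strand (Pi16, Dpt, Pcolce2 and Cd34), and the library protocol names no step that keeps the strand. Gsn overlaps an annotated gene on the same strand, Gm43128, which was not found in the count table. The opposite-strand partner of Pi16, AC162182.1, was not found there either, so the reads of both could not be looked at. The partners found in the table held few reads: at most 5 for that of Dpt, at most 12 for any of Pcolce2 and 20 to 80 for that of Cd34, against 10378 or more on Cd34 itself.

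The 3 calls lay close to the threshold, and none of them held without every one of the 8 libraries. The adjusted p of Dpt was 0.106, 0.172 and 0.117 without control 1, 2 and 3 and 0.157, 0.157 and 0.146 without Fra-2 1, 3 and 4. That of Pcolce2 was 0.0986, 0.139 and 0.109 without the same controls and 0.115, 0.2 and 0.118 without the same Fra-2-labelled libraries. That of Serpinf1 was 0.17 and 0.0547 without control 2 and 3, and 0.161, 0.055, 0.169 and 0.0824 without Fra-2 1, 2, 3 and 4. The sizes moved little in these fits: from 0.49 to 0.66 for Dpt, from 0.41 to 0.52 for Pcolce2 and from 0.64 to 0.90 for Serpinf1 on the log2 scale. Between 0 and 3 of the 9 genes were called in these 8 fits, in which 0.314% to 0.972% of tested genes were called higher.

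The libraries did not stand in the same place for all 9 genes. Control 1 held the lowest control value in 5 genes (Pi16, Serpinf1, Pcolce2, Gsn and Cd34) and control 4 the highest in 6 (Dpt, Pcolce2, Gsn, Mfap5, Cd34 and Clec3b). In the other group Fra-2 2 was the lowest library in 6 genes and Fra-2 3 the highest in 5. The summed level of the 9 genes was 999 to 1351 CPM in the controls and 1278 to 1662 CPM in the Fra-2-labelled libraries, so the sums overlapped: Fra-2 2 lay below control 4.

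Counts of Xist and of Y-linked genes divided both groups evenly, into 2 female and 2 male libraries each. In the female libraries alone, Dpt (log2 fold change 0.70, adjusted p = 0.0236) and Serpinf1 (0.85, adjusted p = 0.0121) passed in edgeR, and 0.900% of tested genes were called higher. The female value of Pcolce2 was 0.46 (adjusted p = 0.118). In the male libraries alone the values were 0.45 for Dpt, 0.74 for Serpinf1 and 0.50 for Pcolce2. There edgeR called 0 members, and 0.0189% of tested genes were called higher. At an unadjusted p under 0.05 in edgeR, 2 members passed in the male and 6 in the female libraries alone. The share of all tested genes at that unadjusted threshold was not counted for either sex. With sex in the model, Serpinf1 alone of the 9 passed, and 0.584% of tested genes were called higher. The adjusted p was then 0.0817 for Pcolce2 and 0.083 for Dpt. Mfap5 had opposite signs, 0.26 in females and -0.15 in males. A male-minus-female term for the fold change passed in edgeR for 0 of the 9 genes, and 0 had an unadjusted p under 0.05. The share of all tested genes passing it was not counted, and it rests on 2 libraries per sex and group. These counts therefore say little about the members. For Mfap5 this term was -0.41 with an SE of 0.216. The male libraries alone also called none of the other genes named here that rose or fell over all 8 libraries.

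**Figure D2:**
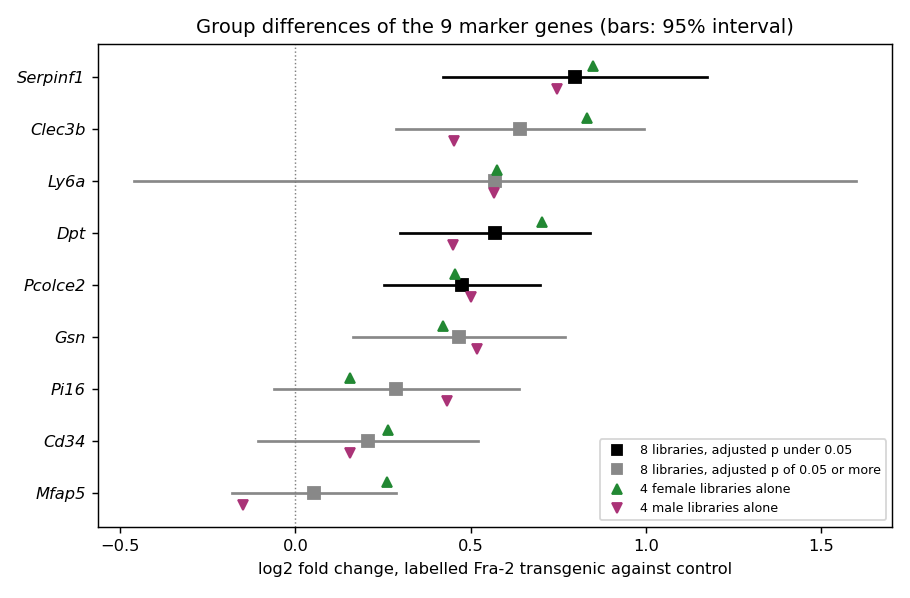
Log2 fold change of each marker gene between the Fra-2-labelled and the control libraries (squares, with 95% intervals as bars; black where the adjusted p was under 0.05), and the same in the 4 female and the 4 male libraries alone (triangles). All 9 squares lie right of 0, from 0.05 for Mfap5 to 0.80 for Serpinf1, and the male value of Mfap5 is the only one left of 0.

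A second list held 30 other genes often found in adventitial fibroblasts, 29 of which were tested. Of these, 2 rose, 1 fell and 26 did not pass in edgeR. DESeq2 called 5 higher and 1 lower, and 13 were higher and 1 lower at an unadjusted p under 0.05. The median log2 fold change was 0.29, and 22 of the 29 were above 0, against 47.8% of all tested genes. In 6 all Fra-2-labelled libraries lay above all controls and in 1 all lay below, against 3.35% and 2.42% of all tested genes. Dcn, which encodes decorin, the collagen-binding proteoglycan to which dermatopontin attaches, had 115, 140, 152 and 152 CPM in the controls and 215, 176, 250 and 206 CPM in the Fra-2-labelled libraries. It rose by 0.60 (SE 0.124, edgeR adjusted p = 0.0323). As with Dpt, its call was lost without control 1, 2 or 3 or Fra-2 1, 3 or 4 (adjusted p from 0.0648 to 0.148).

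Htra3, a secreted serine protease gene, had 18.2, 18.9, 17.8 and 19.5 CPM in the controls and 31.5, 27.6, 31.1 and 29.8 CPM in the Fra-2-labelled libraries. It rose by 0.69 (SE 0.117, edgeR adjusted p = 0.00998), and its call held without each library in turn (adjusted p up to 0.0448). Ackr3, a scavenging receptor for the chemokine CXCL12, went the other way. It fell from 89.4 ± 9.68 to 53.5 ± 7.72 CPM, a difference of -0.74 on the log2 scale (SE 0.122, edgeR adjusted p = 0.00818). This call also held without each library in turn (adjusted p up to 0.0495) but not in the female libraries alone (0.0705). Cd248, endosialin, the most abundant of the list, measured 731 ± 138 and 794 ± 53.0 CPM and did not pass (edgeR adjusted p = 0.897).

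Relatives and partners of the members were read next to them. Of 5 tested CAP superfamily relatives of Pi16, 2 rose, 0 fell and 3 did not pass in edgeR. DESeq2 called 2 higher and 1 lower, as were 2 and 1 at an unadjusted p under 0.05. Pi15, a peptidase inhibitor gene related to Pi16, measured 76.4, 102, 134 and 118 CPM in the controls and 184, 155, 253 and 237 CPM in the Fra-2-labelled libraries, and rose by 0.95 (SE 0.182, edgeR adjusted p = 0.0266). Crispld2, which encodes a secreted CAP protein known from lung mesenchyme, measured 33.6, 35.0, 43.7 and 47.2 CPM in the controls and 62.4, 58.7, 67.3 and 60.2 CPM in the Fra-2-labelled libraries, and rose by 0.64 (SE 0.125, edgeR adjusted p = 0.0244). In both genes the groups did not overlap. Pi15 lost its call without control 2 or 4 or Fra-2 1, 3 or 4 (adjusted p from 0.0519 to 0.104) and with no filter on low counts (0.0519). Crispld2 lost it without control 1, 2 or 3 or Fra-2 1, 3 or 4 (0.0502 to 0.109). Crispld1, a paralogue of Crispld2 named after its values were seen, had 9.50, 6.07, 10.2 and 12.5 CPM in the controls and 3.81, 6.56, 5.07 and 1.96 CPM in the Fra-2-labelled libraries. These groups overlapped by control 2 and Fra-2 2. Its log2 fold change of -1.14 (SE 0.32), larger in size than those of Pi15 and Crispld2 and of opposite sign, did not pass in edgeR (adjusted p = 0.156) and passed in DESeq2 (0.0183). Pi15 and Crispld2 stood above Pi16 in level, at 15.5 RPKM for Pi15 and 8.35 RPKM for Crispld2 in the controls against 1.13 RPKM.

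Of the 3 tested genes of procollagen C-propeptide cleavage beside Pcolce2, 0 passed in edgeR or DESeq2 and 1 had an unadjusted p under 0.05. The proteinase gene Bmp1 ranged from 125 to 169 CPM in the controls and from 129 to 162 CPM in the Fra-2-labelled libraries. Pcolce, the paralogue of Pcolce2 and named after its values were seen, measured 57.1, 73.6, 104 and 109 CPM in the controls and 95.7, 94.4, 122 and 116 CPM in the Fra-2-labelled libraries, with overlapping groups (log2 fold change 0.31, SE 0.181, edgeR adjusted p = 0.713). Per length the paralogues were of like order in the controls, at 15.3 RPKM for Pcolce2 and 22.5 RPKM for Pcolce.

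Of 7 microfibril partners of Mfap5, 0 passed in edgeR or DESeq2, and 3 had an unadjusted p under 0.05. Fbn1, the fibrillin scaffold, measured 6277 ± 484 and 6731 ± 709 CPM. Mfap4, named after its values were seen, had 2380, 2741, 3242 and 3918 CPM in the controls and 4192, 4068, 4401 and 4095 CPM in the Fra-2-labelled libraries, with no overlap, and did not pass (log2 fold change 0.45, SE 0.132, edgeR adjusted p = 0.183, but 0.0222 without control 4).

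Of 6 tested gelsolin relatives, 0 passed in edgeR, 2 had an unadjusted p under 0.05 and DESeq2 called 1. The most abundant, Svil, an actin-binding supervillin gene, measured 357 ± 37.9 and 424 ± 17.5 CPM (edgeR adjusted p = 0.429). Of 4 tested plasminogen system genes, 0 passed in edgeR, 3 had an unadjusted p under 0.05 and DESeq2 called 1. The most abundant, Plat, tissue plasminogen activator, measured 225 ± 23.3 and 304 ± 37.3 CPM (edgeR adjusted p = 0.109). Of 4 genes proposed to encode receptors for the Serpinf1 product, 0 passed in edgeR or DESeq2 and 1 had an unadjusted p under 0.05, with Plxdc2 the most abundant at 392 ± 59.8 and 443 ± 42.5 CPM.

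Podxl2, a relative of Cd34, measured 13.5 ± 0.676 and 15.5 ± 3.14 CPM, and 0 of the 2 CD34 relatives passed in edgeR, in DESeq2 or at an unadjusted p under 0.05. Of 11 Ly6 family relatives, 3 had enough reads to be tested, 0 passed in edgeR or DESeq2 and 1 had an unadjusted p under 0.05. The others were at or near 0: Ly6c1 had 4 to 48 reads per library and Ly6d, Ly6h and Ly6f had 0 in all 8. Lynx1, the most abundant, measured 27.4 ± 5.92 and 35.0 ± 3.34 CPM.

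**Figure D3:**
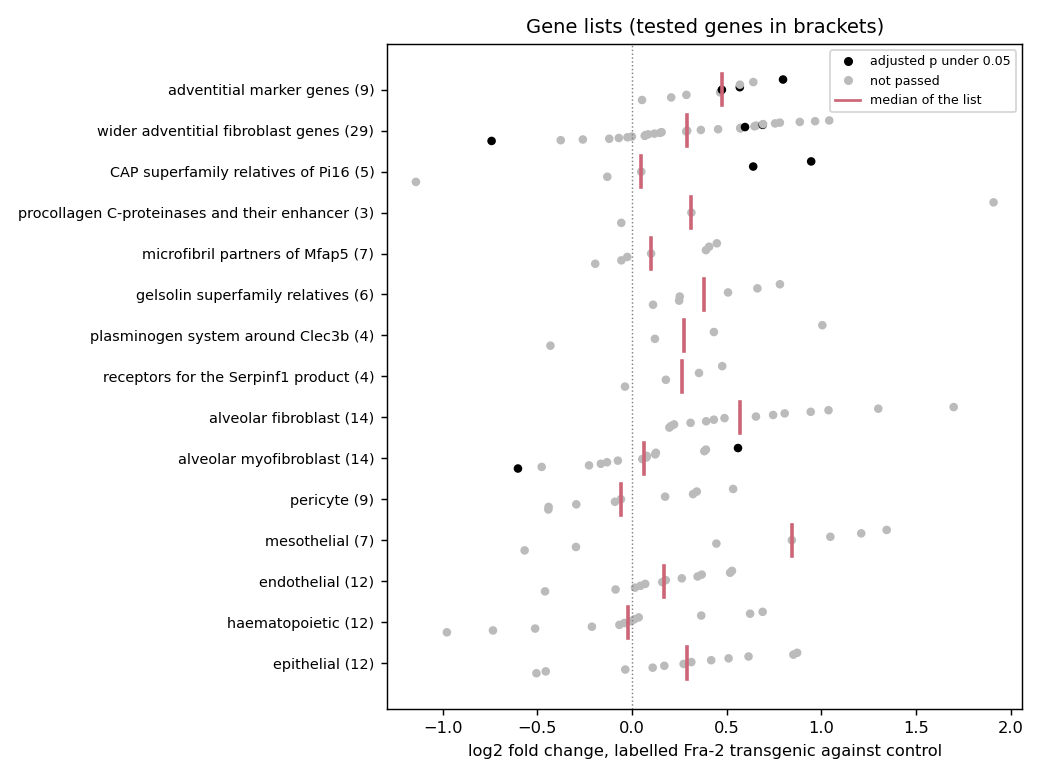
Log2 fold changes of the tested genes of each list (points; black where the adjusted p was under 0.05), with the list's median as a red line. The 9 adventitial markers have a median of 0.47, the wider adventitial list 0.29, the alveolar fibroblast list 0.57 and the alveolar myofibroblast list 0.06.

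Marker lists of other mesenchymal cells were read beside the 9 genes. The alveolar fibroblast list had 14 of 14 log2 fold changes above 0, against 47.8% of those of all tested genes, and a median of 0.57. Its summed level was 380 to 748 CPM in the controls and 751 to 1114 CPM in the Fra-2-labelled libraries. None of its 14 genes passed in edgeR, while DESeq2 called 4 higher and 6 had an unadjusted p under 0.05. Its most abundant gene, Gpc3, a cell-surface proteoglycan gene, measured 227 ± 73.3 and 319 ± 52.0 CPM. The smallest p-values of the list, nearly equal, were those of Limch1 and of the integrin gene Itga8, both named for their values. Limch1 measured 67.4 ± 15.5 and 113 ± 24.2 CPM (edgeR adjusted p = 0.0764). Itga8 measured 80.2 ± 21.8 and 165 ± 45.8 CPM (edgeR adjusted p = 0.077, but 0.0117 without Fra-2 2 and 0.0163 in the female libraries alone). The pericyte list summed to 1907 to 2335 CPM in the controls and to 1654 to 1978 CPM in the Fra-2-labelled libraries. Its leading gene Rgs5 measured 1391 ± 95.7 and 1025 ± 141 CPM (edgeR adjusted p = 0.092) and made up most of that sum. Other genes of the list had the opposite sign, such as Pdgfrb, named after its values were seen, at 350 ± 41.6 and 443 ± 20.5 CPM (edgeR adjusted p = 0.194). Of the 9 pericyte genes 0 passed in edgeR, 2 were higher and 2 lower at an unadjusted p under 0.05, and DESeq2 called 1, Rgs5, as lower. The median of the list was -0.06. The alveolar myofibroblast sums overlapped, at 19118 to 21235 and 18951 to 21093 CPM. In it Stc1, a secreted glycoprotein gene, rose and Enpp2, the autotaxin gene, fell (log2 fold changes 0.56 and -0.60, edgeR adjusted p = 0.0302 and 0.0447). Enpp2 was named after its values were seen. Stc1 lost its call without control 1, 2 or 3 or Fra-2 1 or 3 (adjusted p from 0.08 to 0.126), and Enpp2 without any library other than Fra-2 2 (0.0801 to 0.185). The part of any shift between these cell types in the results for the 9 genes was not tested.

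**Figure D4:**
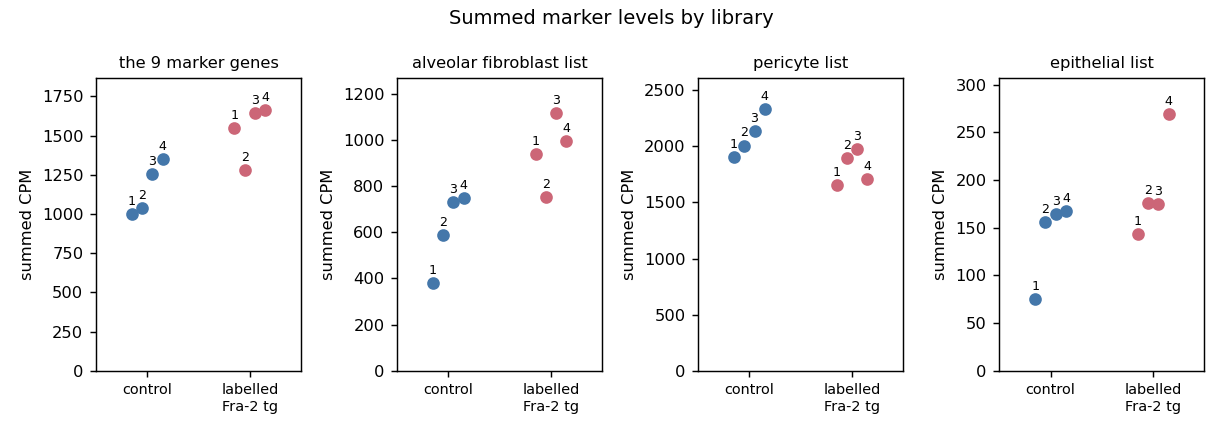
Summed CPM of 4 marker lists in every library (points, numbered by replicate). The alveolar fibroblast sum is higher in all Fra-2-labelled libraries (751 to 1114 CPM) than in any control (380 to 748 CPM), the sum of the 9 marker genes overlaps between groups, and control 1 has the lowest sum of both lists and of the epithelial list.

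Marker lists of cells outside the mesenchyme, some of which can express Cd34, Ly6a or Gsn, were read in the same way. The 12 endothelial genes summed to 76.4 to 115 CPM in the controls and 97.5 to 126 CPM in the Fra-2-labelled libraries. Of these genes 0 passed in edgeR or DESeq2 and 1 had an unadjusted p under 0.05, and Cdh5, the vascular cadherin, measured 24.5 ± 6.26 and 27.7 ± 4.86 CPM. The 10 mesothelial genes in the table summed to 4.38 to 11.9 and 7.83 to 17.1 CPM. Of 7 tested, 0 passed in edgeR or DESeq2, 2 had an unadjusted p under 0.05, and the median was 0.84. Of the 12 haematopoietic genes, 66.4 to 79.0 and 63.0 to 89.3 CPM in sum, 0 passed in edgeR, in DESeq2 or at an unadjusted p under 0.05. The 12 epithelial genes summed to 75.6 to 168 and 144 to 269 CPM, with 0 called in edgeR, 1 in DESeq2 and 2 with an unadjusted p under 0.05. In none of these 4 lists was a listed gene at 0 in all libraries, and their part in the results was not tested.

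Within 1 Mb of the start of each member 11 to 43 other genes were tested, and of these 211 neighbours 3 were called, or 1.42%, against 1.02% of all tested genes. For these distances the lower coordinate of a gene was taken as its start, on either strand. Atp1b1, a subunit gene of the sodium-potassium pump, starts 360 kb before Dpt and fell from 46.1 ± 5.58 to 19.2 ± 2.55 CPM (edgeR adjusted p = 0.000346), the opposite direction to Dpt. Ptgs1, which encodes the cyclooxygenase COX-1, starts 974 kb after Gsn and rose from 109 ± 13.4 to 184 ± 25.7 CPM (edgeR adjusted p = 0.00745). Near Serpinf1, 1700016K19Rik fell from 0.654 ± 0.275 to 0.0653 ± 0.0407 CPM (edgeR adjusted p = 0.0448), a level of few reads whose call was lost without any one of the 8 libraries (adjusted p from 0.0595 to 0.186). The median log2 fold change of the neighbours was -0.45 for the 11 around Cd34, of which 0 were called, and lay between -0.12 and 0.07 for the other 8 members.

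Fra-2 is an AP-1 transcription factor, so the promoters of the members were searched for the AP-1 motif TGANTCA and the related cyclic AMP response element TGACGTCA, on both strands. RefSeq (GRCm38.p6) promoter windows of 250 bases before to 50 after a start were matched by symbol for 6 of the 9 members (Pi16, Dpt, Serpinf1, Pcolce2, Gsn and Cd34), in 8 windows. Of these 8 windows, 0 held TGANTCA and 0 held TGACGTCA, against 7.81% and 1.79% of all 32851 windows. This says only that these letters are not in these windows. The windows of 2 members that rose are printed because they differ in make-up. Each is the part before the start that lies outside annotated exons, on the plus strand, with CpG pairs in capitals.
Dpt, chr1:164796413-164796643: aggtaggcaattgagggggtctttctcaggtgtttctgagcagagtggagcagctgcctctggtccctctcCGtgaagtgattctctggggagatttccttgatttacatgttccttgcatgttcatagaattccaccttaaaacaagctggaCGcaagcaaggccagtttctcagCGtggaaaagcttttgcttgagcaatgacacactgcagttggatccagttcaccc
Pcolce2, chr9:95637378-95637600: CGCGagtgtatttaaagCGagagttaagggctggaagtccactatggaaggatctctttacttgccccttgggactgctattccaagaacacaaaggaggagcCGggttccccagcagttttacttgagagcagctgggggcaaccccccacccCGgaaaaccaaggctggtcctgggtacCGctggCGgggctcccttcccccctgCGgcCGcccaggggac

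The printed stretch of Dpt has 3 CpG pairs in 231 bases and that of Pcolce2 9 in 223 bases. Over the whole windows Dpt had 4 CpG pairs, Serpinf1 3 and Pcolce2 17, where the median of all windows was 7. The 3 members that rose thus stood on both sides of that median. Pi16, with 3, and Cd34, with 7, did not pass, and the 3 windows of Gsn held 20, 2 and 16.

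The search for genes of like pattern took 9426 protein-coding genes averaging 5 CPM or more, without predicted genes, pseudogenes and genes with a Rik symbol. Each was compared with the mean of the 9 members' standardised log2 CPM over the 8 libraries. This mean was lowest in control 1 (-1.34) and highest in Fra-2 3 (0.98), and the lowest Fra-2-labelled library, Fra-2 2 (0.14), was above the highest control, control 4 (-0.01). The 5 nearest genes by Pearson correlation were Tnfaip6 (0.99), a hyaluronan-binding secreted protein gene, Cthrc1 (0.99), a secreted collagen triple helix repeat protein gene, Apbb1ip (0.98), Amph (0.98) and Fam213a (0.98). The correlations describe 8 libraries that share their depth and their group difference, and values this high are the top of 9426 comparisons. Because the mean of the members already separated the groups, choosing genes by it favoured genes that differ between the groups. The edgeR results of these genes are therefore no separate evidence of a group difference. Tnfaip6 rose from 6.94 ± 1.52 to 13.5 ± 2.33 CPM (edgeR adjusted p = 0.0295), Apbb1ip from 4.05 ± 1.25 to 10.9 ± 2.84 CPM (0.0138) and Fam213a from 23.7 ± 4.45 to 41.6 ± 7.37 CPM (0.0283). Cthrc1 and Amph did not pass (edgeR adjusted p = 0.0574 and 0.26), though Cthrc1 passed without control 4 (0.0454) or Fra-2 2 (0.0272) and Amph without control 4 (0.0489). Without control 1, 2 or 3 or Fra-2 1, 3 or 4, Tnfaip6 (0.0647 to 0.128) and Fam213a (0.0651 to 0.123) lost their calls. Apbb1ip lost its call without control 2 or Fra-2 1 or 3 (0.0514 to 0.061).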

How the data were processed

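The authors deposited 1 table of raw read counts per gene for 8 libraries of polyadenylated RNA. Per the labels' protocols, messenger RNA was taken from 50 ng of total RNA, the cDNA was amplified and libraries were made by tagmentation. The submitters' processing notes name the build GRCh38, while the identifiers are mouse genes. The sources used here do not state the aligner, the counter or the annotation. Symbols, positions and exon lengths were taken from GENCODE M21 (GRCm38) by identifier, and 42548 of 43432 identifiers had a symbol.

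The deposited values entered edgeR 4.0.16 in R 4.3.3 without change (filterByExpr, minimum count 10 and total 15, TMM scaling, robust quasi-likelihood F-test, two-sided, Benjamini-Hochberg over 15422 genes at 0.05, no covariate). Each SE is the size of the log2 fold change over the root of its F statistic. Intervals are 95%. Alternatives used DESeq2 1.42.0 and limma 3.58.1. Library totals ran from 29926239 to 41335957, which limits the counting error. Members, lists, named-gene rule and alternatives were chosen with earlier results of these data known, so agreement with them is no independent support. The text names all members, the called genes of each list, the most abundant gene of each list except the mesothelial one, called neighbours and genes of like pattern. Some other listed genes, such as Ly6e, are named only for low counts or a change of sign. Mfap4, Pcolce, Pdgfra, Enpp2, Crispld1, Itga8, Limch1 and Pdgfrb were added after their values were seen. On simulated counts with the same libraries (15091 genes kept), the procedure recovered 30% of changes of 1.5-fold and 80% of 2-fold.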

Additional observations from a re-analysis of the deposited data

Results flagged for a closer look

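In groups of 4, a library was marked where its gap to the next, as a share of the group's range, exceeded Dixon's critical value, which chance does in about 1 in 20 groups. Of 138 groups looked at, 8 were marked, and none was one of the 9 marker genes. Control 1 was the low library for Plxdc2 (303 CPM against 413 to 430), for Atp1b1 (37.8 against 48.1 to 50.1 CPM) and for the summed epithelial list (75.6 against 156 to 168 CPM). Control 4 was the high library for Tgfbi (5211 against 4434 to 4485 CPM) and for the summed alveolar myofibroblast list (21235 against 19118 to 19422 CPM). Fra-2 3 was high for Svil (450 against 414 to 417 CPM) and Pdgfra (1433 against 1159 to 1203 CPM), and Fra-2 2 was low for Fam213a (30.5 against 44.8 to 46 CPM).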

How the results depend on the processing

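The 3 members called higher remained 3 in number with RLE scaling, with no filter, in limma-voom and at an adjusted p of 0.10. There were 2 under a stricter filter and in females alone, 4 in DESeq2, 1 with sex as a covariate and 0 in males alone, and 0 to 3 when single libraries were left out. No alternative called a member lower. Of all tested genes, 0.739% were called higher with RLE scaling, 0.515% with no filter, 0.739% in limma-voom and 0.874% under the stricter filter. In the same order, 0.298%, 0.248%, 0.285% and 0.348% were called lower. Over all tested genes, DESeq2 called 269 higher and 104 lower, the male libraries alone 3 and 0, and fits without 1 library 50 to 153 higher and 22 to 52 lower. At an adjusted p of 0.10, 73 were lower, and more were higher than the 111 called at 0.05. The number of members called higher did not grow with them and stayed at 3. Mfap5 turned to -0.15 in males alone and -0.02 without Fra-2 3 (-0.02 to 0.12 without single libraries). Among genes that did not pass, Bmp1 turned to 0.03 without control 1 (range -0.13 to 0.03), Cdh5 to -0.06 and Sftpc to -0.02 in females alone, Ly6e to -0.04 in males alone, and Cd68 to 0.22, 0.11, 0.06 and 0.19 without control 1, control 2, Fra-2 3 and Fra-2 4 (range -0.28 to 0.22). The cause was not tested. Replicate numbers are shared between the groups. Deviations of same-numbered libraries correlated at 0.0018 to 0.31 across genes, and those of differently numbered libraries at -0.298 to 0.198. Of 8 libraries, 5 correlated best with their own number. With sex as a covariate, Stc1 (adjusted p = 0.0543), Fam213a (0.0501), Enpp2 (0.0817) and 1700016K19Rik (0.0795) lost their edgeR calls. With the replicate number as a block, 3 members were higher, and 137 genes in all were higher and 53 lower. Of the named genes, Limch1 (edgeR adjusted p = 0.006) and Itga8 (0.00195) passed under the block and not in the edgeR fit of all 8 libraries without it. DESeq2 called both without a block (adjusted p = 0.00467 for Limch1 and 0.000279 for Itga8). Changes under 2-fold are often missed at this size, and Ly6a is limited by its 18 to 79 reads.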
